A study of Mus musculus with 18 samples.

Results

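The 107 mature microRNA entries described here carry names numbered from miR-1900 to miR-6895 and are those of that range that passed a minimum level. They were chosen by value: an entry had to reach at least 10 normalized counts in at least 2 of 18 libraries, and 12 numbers were left out by name (miR-5099, miR-5126, miR-3968, miR-3963, miR-2137, miR-5119, miR-5108, miR-5130, miR-6236, miR-3473, miR-2861 and miR-3107). The deposited table held 1390 entries, of which 263 fell in the range and 811 of the whole table reached the same level. The 107 entries bear 96 distinct numbers, since some hairpins give both arms or have close copies.

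The libraries follow the inner cell mass (ICM) as it grows into mouse embryonic stem cells (ESCs). The ICM is the part of the blastocyst that forms the embryo proper. All came from blastocysts of the NMRI strain whose ICM was freed by immunosurgery, and the labels name no genetic change. The groups, each of 2 libraries, were fresh ICM on day 0, outgrowths collected after 0.5, 1, 2, 3 or 5 days of culture, and ESCs under the codes P2, P4 and P15. Outgrowths and ESCs were kept on gelatin in R2i medium, which joins the MEK inhibitor PD0325901 with SB431542, a blocker of activin and TGF-beta type I receptors, and contains leukemia inhibitory factor. The titles of the ESC libraries coded P2, P4 and P15 give passages 4, 15 and 2, so the code names a group here and no order of passages is read. The labels do not say whether 2 libraries of a group came from separate embryos or cultures, and p-values may then measure technical spread alone.

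MicroRNAs are cut from hairpin RNAs by Drosha and Dicer and loaded into Argonaute, where bases 2 to 8, the seed, select target messages. The registry gives numbers in order of submission, and the high numbers were mostly assigned from deep sequencing. Some of those entries are ordinary hairpins, and others share their letters with repeats, small nucleolar RNAs (snoRNAs, guides of RNA modification) or transfer RNAs. Pluripotent mouse cells are known for a few abundant clusters such as miR-290 to miR-295, beside which entries of this kind make up a minor share. In these libraries 14 of the 16 listed arms of miR-290 to miR-295 were above 0 in each group and held 6.45% to 17.8% of all counts.

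RefSeq mature sequences on GRCm38.p6 were found for 85 of the 107 entries. Those below are the ones the results turn on, written 5′ to 3′ with the seed in capitals. The first set are abundant entries and both arms of miR-1934 and miR-1981, which are followed through the comparisons.
miR-6412: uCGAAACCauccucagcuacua
miR-6240: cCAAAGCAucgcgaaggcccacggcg
miR-1934-5p: uCUGGUCCccugcuucguccucu
miR-1934-3p: aGGAUGACgguggggcugguga
miR-3057-5p: aUUGGAGCugagauucugcgggau
miR-6239: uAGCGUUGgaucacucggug
miR-1981-5p: gUAAAGGCugggcuuagacguggc
miR-1981-3p: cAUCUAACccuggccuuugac
miR-6538: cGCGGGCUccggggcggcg
The next set is shown because the letters were found in other annotated transcripts or, for miR-1983, because its place overlaps a transfer RNA gene.
miR-3470b: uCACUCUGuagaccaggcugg
miR-3471: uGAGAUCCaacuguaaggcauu
miR-3535: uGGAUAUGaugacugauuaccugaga
miR-5121: aGCUUGUGaugagacaucucc
miR-1983: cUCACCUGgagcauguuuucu
The last set shows a shared seed, that of miR-6413 and miR-6369, which is also the seed of miR-24-3p, and the pair from the imprinted Dlk1-Dio3 region.
miR-6413: uGGCUCAGaagagcagguagu
miR-6369: uGGCUCAGuucaguguuggugag
miR-3072-5p: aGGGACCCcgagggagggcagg
miR-3072-3p: uGCCCCCUccaggaagccuucu

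Among annotated transcripts of GENCODE vM21, the letters of miR-3470b occurred exactly in 546 genes other than microRNA genes and in 45 microRNA genes. Those of miR-3471 occurred in 34 and 52. The letters of miR-3470b are those of B1, a short interspersed repeat with very many copies in the mouse genome. miR-3535 lay within the snoRNA Gm24148, inside an intron of Ncl, the gene of the nucleolar protein nucleolin. miR-5121 lay within the snoRNA Snord33, inside the ribosomal protein gene Rpl13a. miR-3069-3p matched the small Cajal body RNA Scarna13, and miR-6481 matched the mitochondrial transfer RNA mt-Tf. miR-1983 overlapped a RefSeq transfer RNA gene, n-TItat14. Reads of such entries can come from any copy of the letters, and which copy was read cannot be told apart in a table of totals. The search covered these annotated transcripts alone. Entries with no match there, miR-6412 and miR-6240 among them, may still share letters with transfer or ribosomal RNAs outside them. This was not tested.

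By place, 50 entries lay in an intron and 19 in an exon of a gene on the same strand, 20 lay between genes, 9 antisense to a gene and 8 over a gene annotated as another small RNA class, while miR-1940 was not placed. For miR-1949 and both arms of miR-3068, that gene bears the entry's own name (Mir1949 and Mir3068, annotated as snoRNAs). It may be the same hairpin and not another gene. miR-6412, with the highest mean, lay between genes (GRCm38, chr10:122648412-122648433, plus strand), as did miR-6240 (chr5:114851973-114851998, plus strand) and miR-1934-5p (chr11:69663055-69663077, plus strand). miR-1981-5p lay in an intron of Marc2 (chr1:184822465-184822488, minus strand). miR-3960 lay in an exon of Cdk9, a kinase gene of transcription elongation, and miR-6539 in an intron of Dock5. The 85 sequences had a median GC content of 54.5%, against 47.6% for 582 entries numbered below miR-1900 or named let-7. A first base of U, the base Argonaute prefers at the 5′ end, was found in 37.6% of both sets. Of 72 hairpins with a sequence, 6 (8.33%) folded with a free energy weaker than -25 kcal/mol per 100 bases, against 5 of 341 (1.47%) in the lower-numbered set. The weakest were those of miR-3969, miR-6363, miR-6481, miR-6238, miR-6240 and miR-3966.

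Depth moved with stage and limits what can be compared. In the 10 libraries of days 0 to 3, a single read stood for 1.73 to 5.44 normalized counts and no value below 5 reads was listed, with an estimated 110741 to 370150 reads per library. The 8 libraries of day 5 and ESCs held at least 2322097 to 3021270 reads if their lowest listed value also stands for 5 reads. A 0 in the shallowest library can therefore stand for any value below 27.2 normalized counts, which is 5 reads there. Comparisons across that step used values raised to this common floor, so that differences below it read as 0 and larger ones are understated. Replicates raised to the floor are identical, and their spread is then set and not measured. Totals of normalized counts ran from 602238 to 1265117. The lists of other cell types also moved: fibroblast markers held 1.12% to 2.29% of counts on days 0 to 3 and 0.252% to 0.395% from day 5 on, with 4 to 9 of 9 markers above 0 in a group. On days 0 to 3 miR-145a-5p and miR-199b-5p were at 0 in each group. Primed epiblast markers (miR-302 and miR-367) held 0.00448% to 0.00672% in ICM and on day 0.5, 0.0109% to 0.129% on days 1 to 3 and 0.290% and 0.208% on day 5. In ESCs they held 0.468% and 0.493% in P2, 0.0138% and 0.0183% in P4, and 0.0706% and 0.0645% in P15, with 3 to 9 of 9 above 0 in a group. Blood cell markers held 0.374% and 0.466% in ICM, 0.0752% to 0.220% on days 0.5 to 3 and 0.0846% to 0.424% from day 5 on, with 4 to 6 of 7 above 0. Endoderm markers held 0.104% to 0.317% in all libraries, with 3 to 5 of 5 above 0. The part of these markers in the results below was not tested.

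Together the 107 entries made up 2.43% to 2.98% of all normalized counts in the ICM and day 0.5 libraries and less than that in every later library. They held 2.95% and 2.93% in the ICM libraries and 2.43% and 2.98% on day 0.5. On day 1 they held 1.31% and 1.67%, on day 2 1.13% and 0.801%, on day 3 0.693% and 1.04%, and on day 5 0.735% and 0.691%. P2 held 0.335% and 0.338%, P4 0.383% and 0.361%, and P15 0.865% and 0.942%. The P15 libraries were above the other ESC libraries. The 12 numbers left out were more abundant in every group, with 12.8% ± 0.304 (SD, n = 2) in ICM, 22.6% ± 4.18 on day 0.5, 1.81% ± 0.00948 in P2, 2.35% ± 0.223 in P4 and 3.58% ± 0.141 in P15. Like the 107 entries, they were highest in P15 among the ESC groups. The 108 entries from miR-6896 to miR-7094 held 2.19% ± 0.0768 in ICM, 0.401% ± 0.0915 on day 1 and 0.183% ± 0.00898 in P15, with 0.208% ± 0.178 in P2. Shares are of normalized counts and cannot tell less of an entry per cell from more of all other microRNAs.

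**Figure D1:**
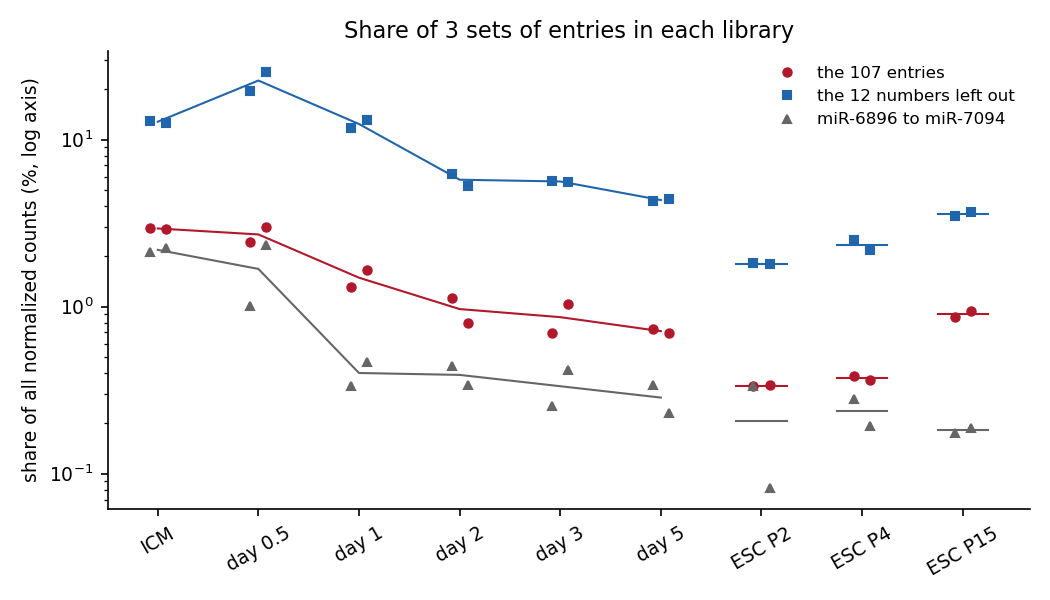
Share of all normalized counts (%, log axis) held by the 107 entries (circles), the 12 numbers left out (squares) and the entries from miR-6896 to miR-7094 (triangles), with 1 symbol per library, a line through the group means from ICM to day 5 and a bar at each ESC group mean. The 107 entries stand at 2.43% to 2.98% in ICM and day 0.5 libraries and at 0.335% to 0.942% in ESC libraries.

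Most of the difference between P15 and the other ESC groups lay in miR-6240 and miR-6539. These 2 entries held 0.546% of counts in P15, against 0.119% in P2 and 0.0980% in P4. The other 105 entries held 0.349% and 0.366% in the P15 libraries, 0.213% and 0.222% in P2, and 0.287% and 0.261% in P4. The same 105 entries held 2.48% and 2.44% in ICM, so their lower share in ESCs did not rest on either entry.

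Levels among the entries spanned a wide range. The mean over 18 libraries was at least 100 normalized counts for 17 entries, 10 to 100 for 36 and under 10 for 54. The highest library was an ICM library for 46 entries, a day 0.5 library for 31, a library of days 1 to 3 for 9, of day 5 for 1 and of ESCs for 20. The lowest value listed was 9 to 27 in libraries of days 0 to 3 and 1 or 2 from day 5 on. An entry with few reads could thus reach the level of 10 in early libraries alone. The highest library was not counted over the whole table, so these counts are not read as a trait of the entries. Only 18 entries were above 0 in all 18 libraries, 24 were at 0 in all 6 ESC libraries and 22 at 0 in both ICM libraries, where a 0 carries little weight at that depth. Just inside the threshold were miR-3074-1-3p, miR-3098-3p and miR-5107-5p, each with 10 normalized counts in its second highest library and 14, 16 and 18 in its highest. Just outside were miR-5620-5p, miR-6340 and miR-1945, each with 9 in the second highest and 38, 31 and 19 in the highest. The floor was exceeded in at least 2 libraries by 61 entries, and 46 never did so.

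**Figure D2:**
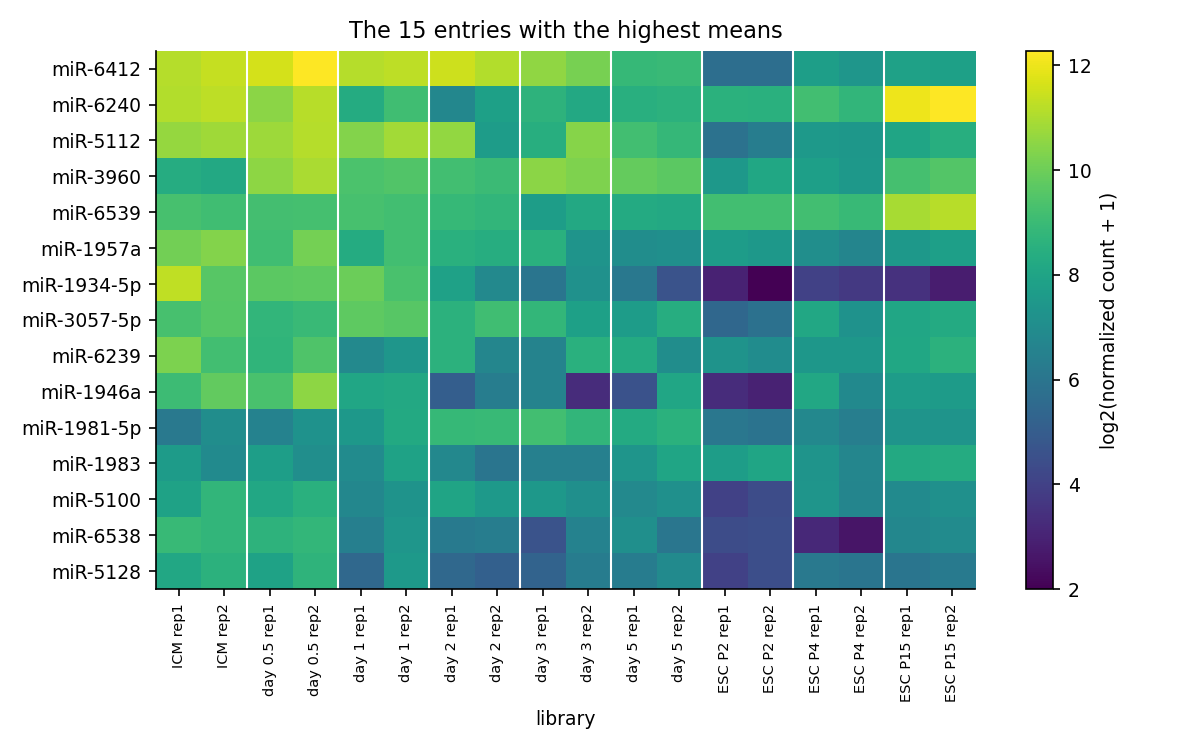
Values of the 15 entries with the highest means (rows) in the 18 libraries (columns, grouped by stage), coloured by log2(normalized count + 1). miR-6412 is brightest in the ICM and outgrowth libraries up to day 3, and miR-6240 is bright in ICM, day 0.5 and P15 libraries.

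The most abundant entries followed several courses. miR-6412 measured 3145 and 4970 normalized counts on day 0.5, 2248 and 2470 on day 1, 2880 and 2185 on day 2, and 1535 and 1139 on day 3, and was the largest entry in most libraries of those days. miR-6240 measured 2186 and 2462 in ICM, 1448 and 2303 on day 0.5, 321 and 555 on day 1, 106 and 227 on day 2, 399 and 296 on day 3, and 361 and 392 on day 5. It was high in ICM and, among the ESC groups, in P15. miR-5112 measured 1766 and 2275 on day 0.5, 1317 and 1844 on day 1, 1579 and 206 on day 2, 351 and 1374 on day 3, and 569 and 460 on day 5. Its replicates of days 2 and 3 lay further apart than its group means of days 0.5 and 1. miR-6539 lay between 555 and 629 in all libraries of ICM, day 0.5 and day 1, with 586 and 612 on day 0.5, 629 and 578 on day 1, 472 and 436 on day 2, and 252 ± 56.6 (SD, n = 2) on day 3.

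The remaining abundant entries lay lower. miR-1957a measured 1099 and 1324 normalized counts in ICM, 563 and 1107 on day 0.5, 321 and 576 on day 1, and 101 to 221 in ESCs. miR-3057-5p, in an exon of Apba3, measured 631 and 753 in ICM, 840 and 777 on day 1, and was lowest in P2 with 42 and 56. miR-6239, antisense to Gpc6, measured 1207 and 580 in ICM, 386 and 105 on day 2, and 126 to 389 in ESCs, and its replicates of ICM and day 2 lay far apart. miR-5100, in an intron of Mief2, measured 245 and 434 in ICM and 15 and 20 in P2, its lowest group. miR-6538, in an intron of Rnf144a, measured 484 and 431 in ICM, 398 and 442 on day 0.5, and 86 and 167 on day 1. miR-5128, in an intron of Strbp, measured 283 and 385 in ICM, 243 and 414 on day 0.5, and 43 and 187 on day 1. All 6 of these entries had their lowest ESC group in P2 or P4.

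To see what separates the start and end of derivation, all 6 ESC libraries were set against both ICM libraries at the common floor. Of the 61 entries tested, 32 were lower and 5 higher in ESCs at a limma adjusted p below 0.05, with a median log2 change of -0.79. Over all 602 microRNAs tested, 32.2% were lower and 35.9% higher, and the median was 0.00. An entry that passed the level filter through the libraries of one side alone had to differ, so these counts describe the entries and test nothing about them as a set. With each library rescaled to the same total, the median of all microRNAs moved to -0.24, with 28.0% higher and 41.6% lower, and the entries gave 1 higher and 37 lower with a median of -0.85.

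miR-1934-5p, the 5p arm of an intergenic hairpin, showed the largest fall at the common floor, where the size for entries at 0 in ESCs is a lower bound. With values as deposited, the fitted changes of miR-3471 (-9.05) and miR-1940 (-8.26) exceeded that of miR-1934-5p (-7.29), but at values of 0 they depend on the 1 added before the log2. miR-1934-5p measured 2496 and 785 normalized counts in ICM and 7 and 3 in P2, 15 and 12 in P4, and 10 and 6 in P15. The groups did not overlap, and the log2 change at the floor was -5.64 (SE 0.49, limma adjusted p = 1.14e-06). Its other arm, miR-1934-3p, measured 76 and 115 in ICM and 0 to 3 in ESCs, with a change of -1.75 at the floor (SE 0.21, limma adjusted p = 1.61e-05).

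miR-6412, the most abundant entry, measured 2246 and 2636 normalized counts in ICM, 51 and 52 in P2, 191 ± 32.5 (SD, n = 2) in P4, and 234 and 226 in P15. All ESC libraries lay below both ICM libraries, and the log2 change was -4.20 (SE 0.19, limma adjusted p = 5.71e-09). miR-5112 measured 1610 and 1798 in ICM and 58, 80, 181, 175, 266 and 351 in the ESC libraries, a change of -3.45 (SE 0.64, limma adjusted p = 5.20e-04). That call was lost when libraries were weighted by quality (adjusted p = 0.100).

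miR-3471, the entry found in many microRNA genes, measured 413 and 676 normalized counts in ICM and was listed at 0 in all 6 ESC libraries. Set against the floor, it was at least 20.0-fold lower in ESCs (limma adjusted p = 3.02e-09). miR-1940 measured 511 and 313 in ICM and 0 in 5 ESC libraries with 4 in the other, a log2 change at the floor of -3.83 (SE 0.21, limma adjusted p = 2.78e-08). miR-6769b-3p (277 and 264) and miR-3971 (54 and 109) were likewise at 0 in all ESC libraries, at least 9.95-fold and 3.00-fold lower.

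The other abundant entries that fell in ESCs were miR-6538, miR-1957a, miR-1946a, miR-5128, miR-3057-5p, miR-6239, miR-5100 and miR-6240, with log2 changes from -3.34 to -1.30. Among these, miR-6240 was the one whose libraries overlapped, with 2186 and 2462 in ICM and 4157 and 4967 in P15. The repeat-derived miR-3470b measured 196 and 369 in ICM and 13 to 101 in ESCs (-2.36, SE 0.49, limma adjusted p = 1.13e-03). miR-6413, which carries the seed of miR-24-3p, measured 87 and 81 in ICM and 0 to 7 in ESCs (-1.59, SE 0.09, limma adjusted p = 3.64e-08).

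Called higher in ESCs were miR-1981-3p, miR-5122, miR-6539, miR-3072-3p and miR-3078-5p. Of these, miR-5122, miR-3072-3p and miR-3078-5p were above the floor in ESC libraries alone, so their calls follow from the filter. None of the 5 calls was kept with quality weights. miR-1981-3p was the only one of these 5 whose groups did not overlap, with 0 in both ICM libraries and 35, 42, 55, 36, 77 and 60 in ESCs, at least 1.87-fold higher (log2 change at the floor 0.82, SE 0.23, limma adjusted p = 7.47e-03). The call was lost after rescaling to the same total (0.13, adjusted p = 0.567), with quality weights (adjusted p = 0.336), and without the P15 libraries (0.59, adjusted p = 0.0601). miR-6539 measured 620 and 555 in ICM, 580 and 576 in P2, 578 and 481 in P4, and 1981 and 2318 in P15, so that the change of 0.56 (SE 0.14, limma adjusted p = 3.27e-03) lay in P15. Without the P15 libraries, an alternative added after the data were seen, 2 entries were higher and 26 lower. The share of all microRNAs in that setting is not given here, so these counts are not read as a trait of the entries.

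Comparisons within days 0 to 3 set no deep library on either side, but estimated depth still ran from 110741 reads in an ICM library to 370150 on day 3. Their spread was estimated from all 18 libraries, deep ones among them. Replicates agreed less in ICM (Pearson r over the entries 0.664) than in ESC groups (0.951 to 0.974), so the p-values do not rest on the early spread alone. Against the same ICM libraries, the 8 libraries of days 0.5 to 3 had 21 entries lower and 6 higher of 61, with a median log2 change of -0.58. Of all 602 microRNAs, 23.1% were lower and 17.9% higher, with a median of -0.02. This comparison and the one of ESCs share their ICM libraries, so their values stand side by side and are not independent. Scaled to equal totals, the median of all microRNAs was -0.19, with 16.6% higher and 29.5% lower of 560. The median of the entries was then -0.69, with 6 higher and 25 lower. With quality weights 11 entries were called, 9 of them lower, a count with no share of all microRNAs beside it and not read as a trait of the entries.

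miR-3960, from the Cdk9 exon, was the entry that rose with no overlap. It measured 308.5 ± 24.7 normalized counts (SD, n = 2) in ICM, 1492 and 2016 on day 0.5, 653 and 712 on day 1, 578 and 512 on day 2, and 1448 and 1251 on day 3 (log2 change 1.64, SE 0.18, limma adjusted p = 2.65e-05, adjusted p = 0.137 with quality weights). In ESCs it was at 179 and 279 (P2), 225 and 177 (P4), and 609 and 730 (P15), so the P2 and P4 libraries lay below the ICM libraries and P15 above. miR-1981-5p and miR-1981-3p also rose (1.56 and 1.00), while the other 3 called higher, miR-6385, miR-5113 and miR-3066-5p, were above the floor on day 0.5 alone. They passed the filter through those libraries, so their calls follow from how entries were selected for the test. miR-6385 measured 163 and 127 there and 0 in ICM and on days 1 to 3, miR-5113 measured 88 and 88 there, 0 and 16 in ICM and 0 on days 1 to 3, and miR-3066-5p 47 and 64 there and 0 in ICM and on days 1 to 3.

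The entries that fell with no overlap were led by miR-3471, which measured 204 and 191 normalized counts on day 0.5, 59 and 60 on day 1 and 0 in all 4 libraries of days 2 and 3. Its log2 change at the floor was -3.25 (SE 0.16, limma adjusted p = 8.31e-08). miR-1940 followed the same order, with 246 and 279 on day 0.5, 20 and 46 on day 1 and 0 on days 2 and 3 (-2.93, SE 0.21, limma adjusted p = 8.80e-07). miR-5627-3p measured 212 and 248 in ICM, 14 and 99 on day 0.5, 43 and 22 on day 1 and 0 on days 2 and 3 (-2.72, SE 0.34, limma adjusted p = 6.77e-05). miR-3470b measured 95 and 85 on day 0.5, 23 and 105 on day 1, 17 and 21 on day 2, and 0 and 9 on day 3 (-2.60, SE 0.47, limma adjusted p = 1.01e-03), a call lost with quality weights (adjusted p = 0.161). miR-1934-3p measured 54 and 18 on day 0.5 and 0 on days 1 to 3 (-1.62, SE 0.20, limma adjusted p = 6.63e-05).

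**Figure D3:**
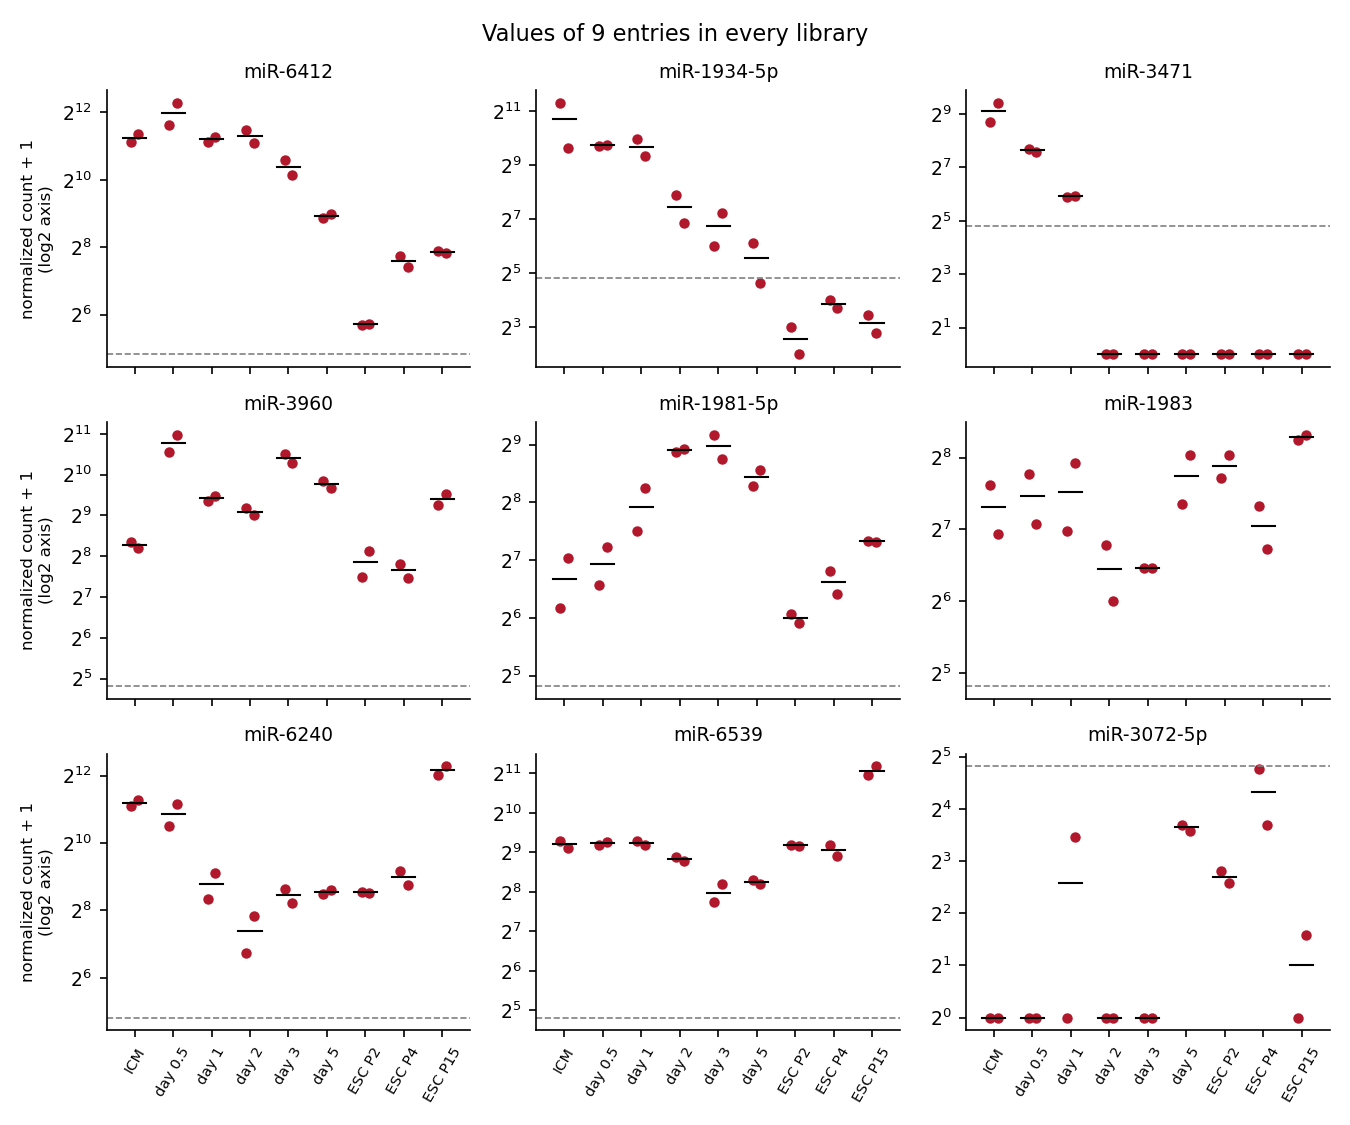
Normalized count + 1 (log2 axis) of 9 entries in each library (red points, 2 per group, with a bar at the group mean), from ICM through the outgrowth days to the 3 ESC groups. The dashed line is the common floor of 27.2 normalized counts. miR-3471 is at 0 from day 2 on, miR-1981-5p is highest on days 2 and 3, and miR-6240 and miR-6539 are highest in P15.

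Between the 4 libraries of days 0.5 and 1 and the 4 of days 2 and 3, 20 entries fell and 4 rose of 61, with a median log2 change of -0.43. The whole table gave 23.9% lower and 16.1% higher, with a median of -0.03. Among the entries that fell, miR-6385, miR-5113, miR-3066-5p and miR-3077-3p were above the floor on day 0.5 alone. Their calls follow from the filter. miR-1946a had the largest fall at the floor, where entries that reach 0 are bounded, from 634 and 1472 normalized counts on day 0.5 and 281 ± 15.6 (SD, n = 2) on day 1 to 33, 80, 96 and 9 (-3.32, SE 0.67, limma adjusted p = 1.86e-03). Later values were 23 and 272 on day 5, 9 and 7 in P2, and 285 and 118 in P4, so the replicates of day 5 lay far apart.

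miR-1934-5p measured 835, 849, 993 and 638 normalized counts on days 0.5 and 1, then 235 and 115 on day 2 and 63 and 148 on day 3 (-2.69, SE 0.42, limma adjusted p = 3.06e-04). miR-3475-3p, an intergenic entry of the X chromosome, went from 243, 272, 195 and 250 to 50, 112, 34 and 52 (-2.06, SE 0.28, limma adjusted p = 1.09e-04). miR-3471 was at least 4.73-fold lower on days 2 and 3 and miR-1940 at least 5.43-fold. miR-1943-5p, in an intron of Tmem184b, went from 90, 50, 78 and 58 to 0, 28, 24 and 49 (-1.06, SE 0.38, limma adjusted p = 0.0459). Its call was lost when replicate 1 of day 0.5, either replicate of day 1 or of day 2, or replicate 1 of day 3 was left out (adjusted p = 0.0641 to 0.150).

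Both arms of miR-1981 rose over the same days. miR-1981-5p measured 94 and 149 normalized counts on day 0.5, 241 ± 86.3 (SD, n = 2) on day 1, 466 and 488 on day 2, and 577 and 433 on day 3 (1.55, SE 0.24, limma adjusted p = 2.96e-04). miR-1981-3p measured 35, 32, 0 and 0 on days 0.5 and 1 and 89, 136, 101 and 87 on days 2 and 3 (1.72, SE 0.20, limma adjusted p = 3.33e-05). The snoRNA-embedded miR-3535 measured 52, 18, 20 and 48, then 155, 237, 135 and 96 (1.97, SE 0.32, limma adjusted p = 3.52e-04). These 3 entries rose with no overlap, and the fourth, miR-1949, overlapped.

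From days 2 and 3 to day 5, 3 entries were called at the floor, against 12 with values as deposited and 6 with quality weights. At the floor, 1 of 61 was higher and 2 lower, where all 602 microRNAs gave 15.1% higher and 9.47% lower. Scaled to equal totals, 2 entries were higher and 2 lower, where all 560 microRNAs gave 15.2% higher and 8.75% lower. miR-6412 fell from 2880, 2185, 1535 and 1139 normalized counts to 467 and 503 (-1.91, SE 0.20, limma adjusted p = 4.60e-05). miR-1957a, in an intron of the glucose transporter gene Slc2a1, went from 352.5 ± 20.5 (SD, n = 2) on day 2 and 370 and 161 on day 3 to 130 and 138 (-1.12, SE 0.36, limma adjusted p = 0.0406). miR-1983, over the transfer RNA gene, went from 109, 63, 87 and 87 to 163 and 263 (1.28, SE 0.36, limma adjusted p = 0.0229). The miR-1957a call was lost without any 1 of 5 of the 6 libraries, all but replicate 2 of day 3 (adjusted p = 0.0700 to 0.171). The miR-1983 call was lost without replicate 2 of day 2 (adjusted p = 0.0668) or of day 5 (0.221), and the number of entries called ran from 1 without day 5 replicate 2 to 5 without day 2 replicate 2.

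**Figure D4:**
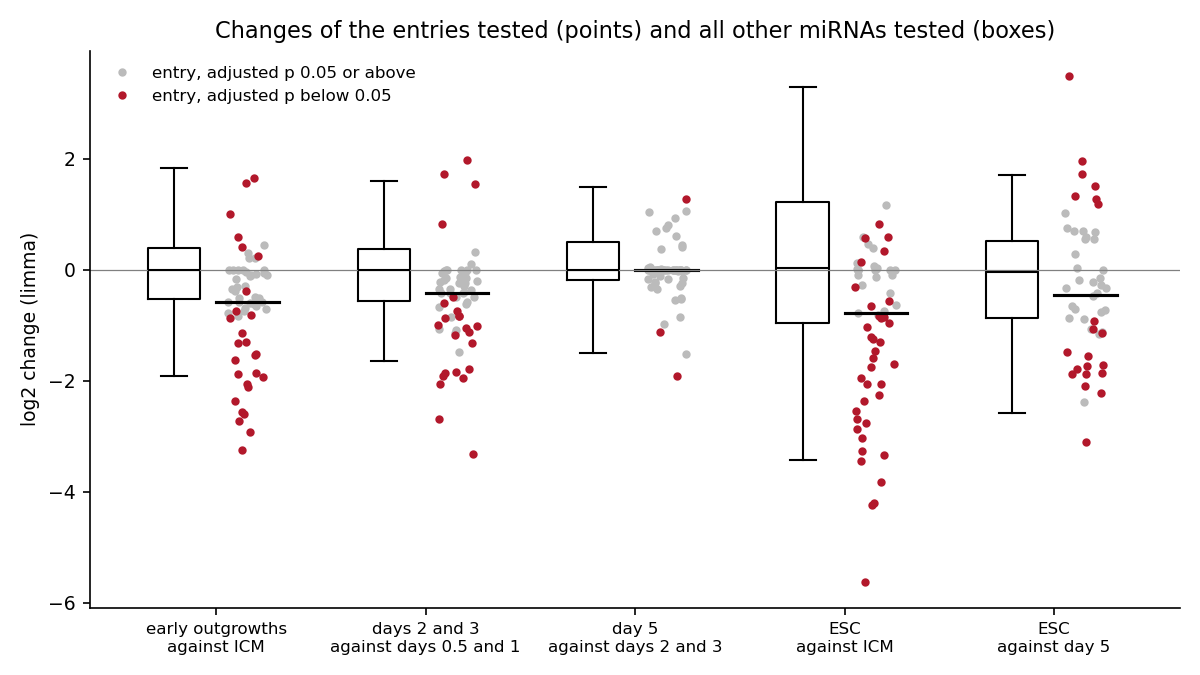
Log2 changes of the entries tested (points, red at a limma adjusted p below 0.05, with a bar at their median) beside all other microRNAs tested (boxes with quartiles and whiskers at the 5th and 95th percentiles) in 5 comparisons. The medians of the entries are -0.58, -0.43, 0.00, -0.79 and -0.45 from left to right.

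The deep libraries allowed low entries to be compared without the floor. Against day 5, 7 of 50 entries were higher and 14 lower in ESCs, with a median log2 change of -0.45. Over the 556 microRNAs tested in these 8 libraries 19.2% were higher and 26.6% lower, with a median of -0.07, so the entries' counts lay near those of the table. Among those called higher, miR-2136, miR-3078-5p, miR-5122 and miR-6369 reached 10 normalized counts in ESC libraries alone. Among those called lower, miR-6413 did so on day 5 alone. These calls follow from the filter. After each library was scaled to an equal total, the median of all microRNAs moved to -0.49 and the calls to 9.58% higher and 38.1% lower. The entries then gave 7 higher and 22 lower.

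miR-3102-3p, in an exon of Arhgef17, measured 52 and 46 normalized counts on day 5, 11 and 12 in P2, 3 and 2 in P4, and 3 and 4 in P15 (-3.11, SE 0.25, limma adjusted p = 2.80e-04, adjusted p = 0.177 with all 18 libraries in the fit). The next falls depended on day 5 replicate 1. miR-1934-5p was at 68 and 24 on day 5 (-2.21, SE 0.48, limma adjusted p = 0.0107) and miR-3475-3p at 101 and 55 (-2.09, SE 0.44, limma adjusted p = 9.24e-03), and without that replicate the adjusted p rose to 0.0604 and 0.0614. miR-6412 continued its fall (-1.88, SE 0.13, limma adjusted p = 1.64e-04), with every ESC library below 467. miR-6413 was at 10 and 11 on day 5 and 0 to 7 in ESCs (-1.89, SE 0.52, limma adjusted p = 0.0265), a call lost without any 1 library of P2 or P15 (adjusted p = 0.0569 to 0.0622) or with all 18 libraries in the fit (adjusted p = 0.252). It was tested through the day 5 libraries alone, so its fall follows from the filter.

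Rises from day 5 with no overlap were seen for miR-2136 and miR-6539. Of these, miR-2136 was tested through its ESC libraries alone, so its rise follows from the filter. miR-2136 measured 0 and 3 normalized counts on day 5, 13 and 9 in P2, 9 and 9 in P4, and 92 and 97 in P15 (3.49, SE 0.51, limma adjusted p = 2.36e-03). It also reached 29 and 85 on day 0.5. miR-6539 measured 304.5 ± 13.4 (SD, n = 2) on day 5, below every ESC library (1.51, SE 0.12, limma adjusted p = 2.61e-04).

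The 3 ESC groups differed in most entries. The limma F test passed for 41 of 50 entries, and for 80.4% of all 556 microRNAs, so the entries were near the table as a whole. Among those that passed, miR-1957b and miR-6369 reached 10 normalized counts in P2 alone of the 8 libraries' groups. The same held for miR-1948-3p in P4 and miR-3074-1-3p in P15. These calls follow from the filter. The median span between the highest and lowest group mean was 2.18 on the log2 scale for the entries and 1.97 for all. Replicates of an ESC group were close, with a Pearson r over the entries of 0.951 to 0.974, against 0.664 in ICM and 0.709 on day 0.5.

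By the lowest p, the entries were miR-6240, miR-6539, miR-6412, miR-6369 and miR-5122. miR-6240 measured 371 ± 5.66 normalized counts (SD, n = 2) in P2, 578 and 429 in P4, and 4157 and 4967 in P15 (span 3.61, limma adjusted p = 1.3e-05). It alone made up 40.4% and 41.7% of the counts of the 107 entries in the P15 libraries. miR-6412 was lowest in P2 (span 2.14, limma adjusted p = 8.6e-05). miR-5122 measured 2 and 1 in P2, 81 and 55 in P4, and 37 and 41 in P15 (span 4.79, limma adjusted p = 2.18e-04).

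miR-6369 was listed above 0 only in the P2 libraries, at 11 and 15 normalized counts (span 3.79, limma adjusted p = 1.83e-04). It entered the 107 entries through those libraries alone, so its difference follows from how entries were chosen. miR-3072-5p and miR-3072-3p come from Mirg, the microRNA host transcript of the imprinted Dlk1-Dio3 region on chromosome 12, which is expressed from the maternal copy. miR-3072-3p measured 18 and 20 on day 5, 10 and 8 in P2, 70 and 46 in P4, and 0 and 4 in P15, and miR-3072-5p 12 and 11, 6 and 5, 26 and 12, and 0 and 2. Both passed the F test (limma adjusted p = 3.15e-03 and 5.85e-03), with P4 highest and P15 lowest. miR-6538 had another order, lowest in P4 and highest in P15, with 8 and 5 in P4, 20 and 21 in P2, and 106 and 123 in P15 (limma adjusted p = 3.76e-04).

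**Figure D5:**
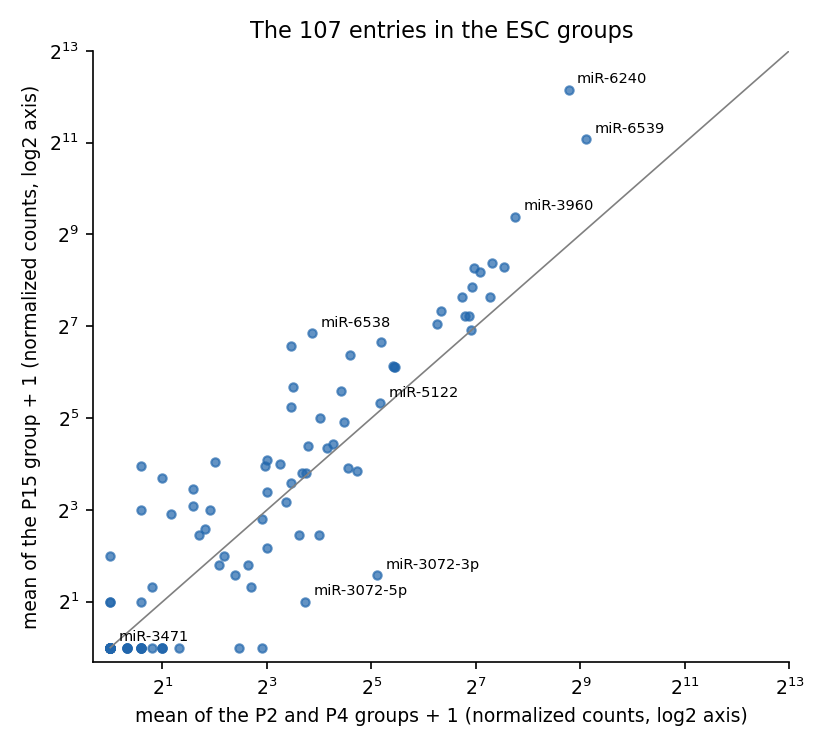
Mean normalized count + 1 of each of the 107 entries in P15 (vertical, log2 axis) against the mean of the P2 and P4 groups + 1 (horizontal, log2 axis), with the line of equality. miR-6240 and miR-6539 stand highest and above the line, and miR-3072-5p and miR-3072-3p stand below it.

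For 7 hairpins both arms were among the entries: miR-1934, miR-1955, miR-1981, miR-3068, miR-3072, miR-3077 and miR-3102. The 5p arm was the larger in each group for miR-1934, with means of 1640.5 against 95.5 in ICM, and for miR-1981, with 505 against 94 on day 3. The 3p arm was the larger for miR-3072 on day 5 and in each ESC group. The order of the arms of miR-3068, which share a snoRNA annotation, was not the same throughout, with 52.5 against 32 in ICM and 2 against 35 in P2. miR-3102 had more 3p than 5p in each group but day 0.5, where the means were 14 against 0. They were 8 against 11 in ICM and 1 against 49 on day 5. In P4 and P15 they were close, with 2 against 2.5 and 2.5 against 3.5. A further entry of this hairpin, miR-3102-3p.2-3p, measured 0 and 53 in the ICM libraries.

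Each entry was given a single place, also miR-3471 (between genes) and miR-3470b (antisense to a gene), whose letters occur in many genes. By place and number the entries are described by counts alone, and no difference between classes was tested. Beside them, 32.2% of all 602 microRNAs were lower and 35.9% higher. Between ESCs and ICM, 11 of 14 tested entries that lay between genes were lower and none higher, with a median of -1.73. Of 23 in introns 13 were lower and 2 higher (median -0.79), and of 12 in exons 2 were lower and 3 higher (median 0.00). Of 6 over a gene annotated as another small RNA class 2 were lower (median -0.38), and of 5 antisense to a gene 3 (median -0.87). The 2 were miR-3069-3p and miR-1949, the latter over a snoRNA annotation of its own name. miR-1940, for which no place was found, was lower. By number, 8 of 16 tested entries from miR-1900 to miR-1999 were lower and 1 higher, 5 of 15 from miR-3000 to miR-3199 lower and 2 higher, 5 of 9 from miR-3200 to miR-3999 lower, 5 of 8 from miR-5000 to miR-5199 lower and 1 higher, 5 of 7 from miR-6000 to miR-6499 lower, and 3 of 4 from miR-6500 to miR-6895 lower and 1 higher. The only tested entry from miR-5200 to miR-5999 was lower, and the only one from miR-2000 to miR-2999 was not called.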

How the data were processed

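Small RNA of 18 mouse libraries (9 groups of 2) was sequenced on an Illumina GAIIx after TruSeq Small RNA preparation, per the labels. The values are a score: normalized counts that the authors deposited as whole numbers. The submitters' processing notes name cutadapt, DESeq2 1.30.0 and mm10, but no aligner, counter or microRNA annotation (not given in the sources used here). Since reads could not be recovered, log2(value + 1) was tested with limma 3.58.1 (R 4.3.3, trend and robust), with Benjamini-Hochberg adjustment over all microRNAs tested and a threshold of 0.05. Comparisons with libraries of days 0 to 3 used all 18 libraries, values raised to the common floor and microRNAs above it in at least 2 libraries. Those of day 5 and ESCs used 8 libraries as deposited and values of at least 10 in at least 2. The entries, lists and tests were chosen with earlier results of these data known. Named were the 15 highest means and, per comparison, up to 5 called and non-overlapping entries each way (for the F test, the 5 lowest p), miR-3072 and others being added after their values were seen. Hairpins were folded with RNAfold 2.7.2. Places are from GENCODE vM21 and RefSeq on GRCm38. The fits were also run on simulated data that gave all groups the same spread setting, while the real replicates differed in agreement by group. That run does not give the error rate in these data.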

Additional observations from a re-analysis of the deposited data

How the results depend on the processing

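Of 529 repeats of the changes of named entries, 496 kept their direction and side of the threshold, 33 kept the direction and lost the call, and none reversed. The number of entries called moved by over 1.5 times in these cases. For ESCs against ICM it was 20 instead of 37 with a minimum of 100 and 21 with quality weights, and for early outgrowths 11 instead of 27 with quality weights. For day 5 against days 2 and 3 it was 12 instead of 3 with values as deposited, 5 with a pseudocount of 5 and 6 with quality weights. For ESCs against day 5 it was 11 instead of 21 with all 18 libraries in the fit and 9 with the minimum of 100. Among ESC groups it was 24 instead of 41 at the common floor, 19 with all 18 libraries and 15 with the minimum of 100, which leaves 16 entries to test. The minimum of 100 tests fewer entries, and the cause of the other shifts was not tested. Leaving out 1 library gave 30 to 36, 22 to 30, 18 to 24, 1 to 5, 16 to 26 and 31 to 40 entries for ESCs against ICM, early outgrowths, days 2 and 3, day 5, ESCs against day 5 and the ESC groups. Replicate numbers did not pair the samples (r of deviations from -0.36 to 0.24 over 36 pairs of groups, 3 above 0.1). With the replicate block 37, 24, 22, 4, 20 and 41 entries were called in the same order. At 5 reads the Poisson error is 44.7% of a value, so entries near the floor are coarse.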
